A study of Mus musculus with 10 samples.

Results

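Transcript levels of 10 genes of glycolysis and the hypoxia response were followed through the chemical reprogramming of mouse embryonic fibroblasts into XEN-like cells, which resemble the extraembryonic endoderm. The genes were chosen by name from the 23197 genes of a single-cell count table, and all 10 were listed in it. *Slc2a1*, *Hk2*, *Pfkp*, *Aldoa*, *Pgk1* and *Ldha* encode a glucose transporter and enzymes of glycolysis. *Vegfa*, *Adm* and *Stc1* encode secreted proteins, and *Bnip3* encodes a protein of the outer mitochondrial membrane.

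Glycolysis breaks glucose down to pyruvate in the cytosol, and lactate dehydrogenase turns pyruvate into lactate when it does not enter mitochondria. Cells that run short of oxygen stabilise the HIF transcription factors, whose alpha subunits are otherwise hydroxylated by EGLN enzymes and degraded through VHL. HIF binds short DNA elements with an RCGTG core (R is A or G) near genes for glucose uptake, glycolytic enzymes, vessel growth and mitophagy. Many of these genes also respond to growth factors, cAMP and other signals, so that their transcripts are no direct measure of oxygen.

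Fibroblasts of ICR mouse embryos at mid-gestation (d0) were moved from a serum medium into KnockOut DMEM with serum replacement, serum and bFGF, together with the C6FAE cocktail of CHIR99021 (a GSK3 inhibitor), RepSox (an ALK5 inhibitor), Forskolin (which raises cAMP), AM580 (a retinoic acid receptor agonist) and EPZ004777 (a Dot1L inhibitor). A passage of the study's methods also lists valproic acid for this medium, while the labels name C6FAE alone, so that its presence in these cells is not settled here. Every group after d0 thus had both the cocktail and another medium, and effects of the 2 cannot be told apart. Cells were picked by hand on days 1, 2, 3, 4, 5, 6, 8, 12 and 20 (d1 to d20), and further cells came from colonies on day 8 (d8c) and day 12 (d12c). The cells of day 6 carry the name d6p in the table, and nothing says what its last letter stands for. No knockout or transgene distinguishes these groups, and oxygen was not varied between them as far as the sources used here tell.

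Of 808 cells, the 670 with at least 4000 detected genes were kept, 20 at d8c to 86 at d6. Each cell had 17633 to 6004864 unique molecular identifiers (UMIs, tags meant to stand for 1 captured RNA molecule each). The filter removed 45 of 96 d12c cells and 34 of 72 d20 cells, against 0 (d1 and d5) to 12 (d0) in the other groups. Median depth was lowest at d20, with 195480 UMIs, and highest at d2, with 1055206. The median share of spike-in RNA was 3.28% at d0, 11.03% at d12, 17.4% at d12c and 19.3% at d20. The 10 sequenced samples are batches of cells, but the batch of a cell is not known, so that the table counted as 1 sample, without replicates and without a test between time points. Intervals given here are exact Poisson or Clopper-Pearson intervals at 95% and cover counting error only. The Poisson intervals take each UMI as 1 molecule, which was not checked, and are too narrow where this fails.

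The time points were checked against their markers. The summed level of 10 fibroblast markers (*Col1a1*, *Col3a1*, *Prrx1* and others) had a median of 3203 CPM (UMIs of the gene scaled to a fixed total per cell) at d0, 11429 at d8, 6873 at d12 and 48.5 at d20, where *Osr1* was at 0. The sum of 10 XEN markers (*Sox17*, *Gata4*, *Foxa2* and others) had a median of 49.1 CPM at d0 and 1491 CPM at d20. The d12 cells thus carried the fibroblast markers, and their median XEN sum was 46.2 CPM. The highest d12 cell had an XEN sum of 2601 CPM, so that the group was mixed. Among the XEN markers, *Dab2* had a mean log2(CPM + 1) of 4.65 at d0 and 2.68 at d12. Each other XEN marker was higher at d12 than at d0, with 0.04 and 3.20 for *Sox17* at d0 and d12.

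The d12c colony cells fell into separate sets by the running number in their names, whose meaning is not given. The 21 cells numbered 1 to 24 had a median fibroblast sum of 3788 CPM and a median XEN sum of 196 CPM. The 30 cells numbered 49 to 96 had medians of 29.2 and 1104 CPM. No kept d12c cell was numbered between these sets, after the filter had removed 45 of the 96 d12c cells. Results for d12c are therefore given for each set as well. Endothelial and red blood cell markers were at or near 0 at d12, with medians of 0 for both sums. The 5 macrophage markers summed to a median of 4.33 CPM there, with *Ptprc*, *Adgre1* and *Aif1* at 0 and a highest cell of 392 CPM. The remaining macrophage markers were higher at d12 than at d8. Mean log2(CPM + 1) was 1.43 against 0.92 for *Csf1r* and 1.98 against 0.32 for *Cd68*. The 5 epithelial markers (*Krt8*, *Krt18* and others), which extraembryonic endoderm also expresses in part, had a median sum of 11.4 CPM at d0, 12.4 at d8, 123 at d12 and 2215 at d20. The 5 pluripotency markers had a median sum of 9.76 CPM at d0 and 17.4 at d20, with *Esrrb* at 0 at both. Of these 5, *Nanog* had a mean log2(CPM + 1) of 3.27 at d0, 4.04 at d2 and 3.48 at d20. Each other one stayed below 1 in every group.

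Across the course, the 10 genes showed separate patterns rather than 1 shared rise. *Adm* and *Stc1* were highest at d12 and nearly absent at d20. *Slc2a1*, *Hk2* and *Vegfa* were also highest at d12, *Bnip3* peaked in the days before it, and the glycolytic enzymes *Aldoa*, *Pgk1* and *Ldha* stayed within a narrow band. Measured as the range of mean log2(CPM + 1) over the 12 groups, the spread was 10.48 for *Stc1* and 9.93 for *Adm*, between 3.77 and 4.84 for *Slc2a1*, *Hk2*, *Vegfa* and *Bnip3*, 2.19 for *Pfkp*, and between 1.20 and 1.72 for *Aldoa*, *Pgk1* and *Ldha*.

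**Figure D1:**
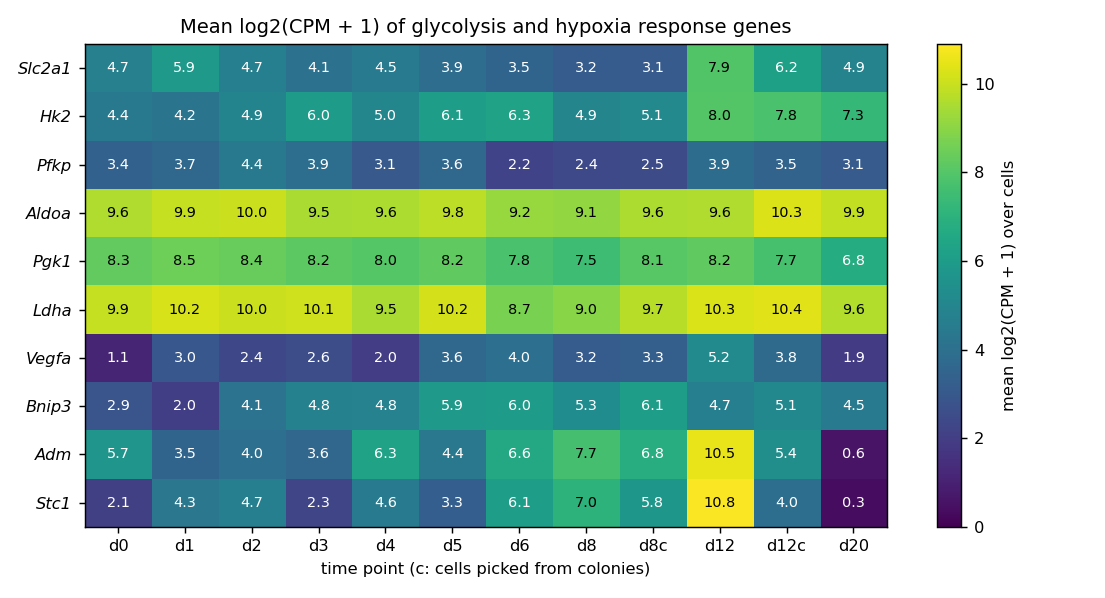
Mean log2(CPM + 1) over the kept cells of each time point (columns, d8c and d12c being colony cells) for each of the 10 genes (rows). *Adm* and *Stc1* run from 10.5 and 10.8 at d12 to 0.6 and 0.3 at d20, while *Aldoa* stays between 9.1 and 10.3.

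Promoters were looked at because genes of this kind are grouped by the element that HIF reads. RefSeq promoters of mouse build GRCm38.p6 (250 bases before to 50 after each annotated start) were at hand for 9 of the 10 genes, with 13 starts among them, and not for *Stc1*. The core ACGTG or GCGTG, searched on both strands, stood in at least 1 promoter of all 9 genes and in 11 of the 13, against 43.8% of 32851 promoters. ACGTG alone was found in 8 of the 13 promoters (7 genes), against 19.6% of all promoters, and GCGTG in 7 of the 13 (6 genes), against 32.4%. Of the *Aldoa* promoters, 2 overlap and share 1 ACGTG, which is counted in both. All matches of *Vegfa* came from the downstream of its 2 starts, so that its place among the 9 genes rests on a window inside the gene. CACGTG, which holds ACGTG on either strand and is also the site of E-box factors, was found in 2 of the 13, of *Ldha* and *Bnip3*, against 7.15%. TGACG, one arm of the cAMP response element, can overlap ACGTG by its last bases, and it was found in 4 of the 13, of *Hk2*, *Ldha* and *Vegfa*, against 20.8%. A match describes the letters in this window and is not a bound site.

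*Slc2a1*, *Vegfa* and *Adm* had their highest level at d12 and *Bnip3* did not, as described below. For this difference the promoters of these 4 genes are shown, and each window given holds the core. *Hk2*, also highest at d12, held 2 cores in its promoter, which is not shown. They lie at chr4:119108495-119108794 on the plus strand (*Slc2a1*), chr17:46025114-46025413 on the minus strand (*Vegfa*), chr7:110627407-110627706 on the plus strand (*Adm*) and chr7:138909457-138909756 on the minus strand (*Bnip3*), in GRCm38.p6. Capitals mark ACGTG or GCGTG, or their reverse complements CACGT and CACGC where the core is on the other strand.
Slc2a1: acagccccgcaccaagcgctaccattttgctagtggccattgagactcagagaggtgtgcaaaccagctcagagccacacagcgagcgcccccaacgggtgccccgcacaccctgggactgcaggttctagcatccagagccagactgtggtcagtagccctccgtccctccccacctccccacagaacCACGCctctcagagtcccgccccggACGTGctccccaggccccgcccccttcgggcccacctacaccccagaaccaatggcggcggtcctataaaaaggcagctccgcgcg
Vegfa: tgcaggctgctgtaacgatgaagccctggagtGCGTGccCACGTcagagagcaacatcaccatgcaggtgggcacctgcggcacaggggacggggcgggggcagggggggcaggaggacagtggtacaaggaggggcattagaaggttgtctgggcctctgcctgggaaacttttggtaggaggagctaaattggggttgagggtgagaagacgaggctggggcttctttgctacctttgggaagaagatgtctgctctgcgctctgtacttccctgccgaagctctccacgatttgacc
Adm: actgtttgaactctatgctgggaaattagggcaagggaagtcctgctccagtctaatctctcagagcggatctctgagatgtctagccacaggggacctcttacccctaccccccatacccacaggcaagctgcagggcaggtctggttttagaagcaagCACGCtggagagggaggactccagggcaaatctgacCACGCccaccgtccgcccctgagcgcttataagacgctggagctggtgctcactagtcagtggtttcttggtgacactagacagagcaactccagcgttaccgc
Bnip3: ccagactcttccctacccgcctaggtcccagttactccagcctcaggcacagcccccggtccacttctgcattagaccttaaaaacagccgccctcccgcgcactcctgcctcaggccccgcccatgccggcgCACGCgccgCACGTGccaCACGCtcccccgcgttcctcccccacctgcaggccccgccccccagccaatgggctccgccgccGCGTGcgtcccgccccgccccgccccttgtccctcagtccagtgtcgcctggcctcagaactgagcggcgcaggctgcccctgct
*Slc2a1*, *Vegfa* and *Adm* held 2 cores each and *Bnip3* held 5, with the palindrome CACGTG counted on both strands. An *Ldha* promoter not shown here held 7 on the same count, and the number of cores was not tested against level. The *Vegfa* window shown is that of the downstream of 2 starts. The window of the upstream start, on the same strand, held no core.

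*Slc2a1* encodes GLUT1, the glucose transporter of most dividing cells, and lies at chr4:118781316-118809935 on the plus strand of NCBIM37 (mm9). Its level ran from 0 CPM in the lowest cell over a median of 37.5 to 276 in the highest at d0, and from 0 over 6.91 to 106 CPM at d8. At d12 the lowest, median and highest cells had 18.2, 292 and 1149 CPM. The d12 median was above the highest d8 cell, although the ranges of single cells overlapped. At d20 the values were 0, 45.8 and 443 CPM, with a UMI in 32 of 38 cells.

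Before d12 the mean of *Slc2a1* was highest at d1 (84.2 CPM, against 55.5 at d0). From d2 to d8 neighbouring time points differed by less than 1 in mean log2(CPM + 1), and the mean at d8 was 18.2 CPM. Pooled over the 67 d12 cells, 18518 UMIs of *Slc2a1* gave 327 CPM (323 to 332). The groups ordered by median were d12, d12c, d1, d20, d0, d4, d2, d3, d5, d6, d8 and d8c, and the quartile ranges of all 11 neighbouring pairs overlapped.

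Hexokinase 2 is the inducible enzyme that traps glucose as its phosphate (*Hk2*, chr6:82675019-82724448, minus strand, NCBIM37). In mean CPM *Hk2* was at 60.7 at d0, 120.1 at d3, 145.4 at d6 and 83.8 at d8, and then at 368 at d12, 319 at d12c and 230 at d20. The lowest, median and highest cells had 0, 37.8 and 347 CPM at d0, 0, 52.5 and 514 at d8, 12.3, 334 and 1679 at d12, and 3.70, 183 and 692 at d20. *Hk2* had a UMI in every kept cell of d12, d12c and d20, against 83.3% of d0 cells. In the XEN-like d20 cells the median of *Hk2* lay above its upper d0 quartile of 79.0 CPM, while that of *Slc2a1* lay within its d0 quartiles.

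Within d0, *Hk2* depended on the running number, with a mean log2(CPM + 1) of 3.6 for numbers up to 48 and 5.6 above. The d20 minus d0 difference of *Hk2* was 2.85, and it was 3.62 and 1.72 within these sets. It passed 1 under every one of the 16 settings computed.

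The platelet isoform of phosphofructokinase carries out the committed step of glycolysis (*Pfkp*, chr13:6579014-6648023, minus strand, NCBIM37). Its mean was between 12.5 CPM (d6) and 46.8 CPM (d20). The share of cells with a UMI was 95.2% at d2, 68.6% at d6, 95.5% at d12 and 57.9% at d20, and after thinning to 50000 UMIs per cell 69.5%, 24.7%, 53.0% and 44.4%. Its medians of 24.9 CPM at d2, 2.88 at d6, 18.1 at d12 and 6.18 at d20 gave the same order for d2, d12 and d6 but put d20 below d12, while the means put it above. At d20, a few cells of up to 353 CPM carried the mean.

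Aldolase A, phosphoglycerate kinase 1 and lactate dehydrogenase A are abundant enzymes of the later pathway and of lactate formation. *Aldoa* lies at chr7:133938748-133944265 (minus strand), *Pgk1* at chrX:103382439-103399038 (plus strand) and *Ldha* at chr7:54096845-54110997 (plus strand), in NCBIM37. *Aldoa* and *Ldha* had a UMI in all 670 kept cells, and *Pgk1* lacked one in a single d20 cell. These genes have near-identical copies or processed pseudogenes, and how reads shared with such copies were counted is not given in the sources used here, so that their levels are uncertain.

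Lowest, median and highest cells of *Aldoa* were at 281, 794 and 1837 CPM at d0, 327, 719 and 2405 at d12, and 291, 1042 and 1959 at d20. *Ldha* had 155, 1013 and 3479 CPM at d0, 32.1, 582 and 2931 at d8, 307, 1222 and 4147 at d12, and 56.8, 790 and 2166 at d20. For *Pgk1* the medians were 348 CPM at d0, 210 at d8, 312 at d12 and 165 at d20. The cells of all these time points overlapped for each of the 3 enzymes. *Ldha* had its lowest mean at d6, with 591 CPM, and its highest at d12c, with 1636 CPM, where *Aldoa* also had its highest mean, 1494 CPM.

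Adrenomedullin is a secreted peptide that widens vessels and acts through the receptor CALCRL with a RAMP partner (*Adm*, chr7:117771175-117773331, plus strand, NCBIM37). At d0 the lowest, median and highest cells had 0, 59.6 and 770 CPM of *Adm*. At d1 the median was 7.42 CPM, and it was 10.7 at d2 and 8.68 at d3. From d4 the median was above that of d1 to d3, with 65.4 CPM at d4, 101 at d6 and 241 at d8, with a lower value of 22.5 at d5 between them.

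At d12 the lowest, median and highest *Adm* values were 173, 1995 and 11623 CPM, and 45 of 67 cells had at least 1000 CPM, against 8 of 62 cells at d8 and none at d0. At d20, 6 of 38 cells had a UMI of *Adm* (15.8%, 6.02% to 31.3%), with 54 UMIs in all and a highest cell of 94.9 CPM. No d20 cell reached the lowest d12 cell. Of the fibroblast markers, *Col1a1* had a UMI in 5 of the same 38 cells. Its mean log2(CPM + 1) was 0.44 at d20, and those of the 10 markers ran from 0 (*Osr1*) to 2.54 (*Thy1*). Their sum had a median of 48.5 CPM.

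Stanniocalcin 1 is a secreted glycoprotein linked to calcium and phosphate handling (*Stc1*, chr14:69647295-69659861, plus strand, NCBIM37). Its lowest, median and highest cells had 0, 3.34 and 106 CPM at d0, 0, 139 and 4213 at d8, and 75.7, 2524 and 11610 at d12. The quartile ranges of d12 and d8 did not overlap, while those of the other 10 neighbouring pairs in its order did. A level of at least 1000 CPM was found in 50 of 67 cells at d12 and in 10 of 62 at d8.

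*Stc1* was nearly absent at d20, with a UMI in 3 of 38 cells (7.89%, 1.66% to 21.4%). A single cell, number 10, had 1168 CPM and nearly all of the 477 UMIs, and it was the cell with the highest fibroblast sum of the 38 (883 CPM) and the lowest XEN sum (88.5 CPM). The mean of 30.8 CPM at d20 rests on that cell, the median being 0. The d20 minus d0 difference of *Stc1* was −1.72 on mean log2(CPM + 1), but 1.61 from the log2 of the mean CPM and 3.43 from summed UMIs, and it was −1.92 once the highest cell of either group was left out.

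In the first days the 2 hormones moved apart. *Stc1* was higher at d1 (mean 58.6 CPM) and d2 (90.04 CPM) than at d0 (9.42 CPM), on the days on which *Adm* was lower. At d4 the sets of running numbers disagreed. The 40 cells numbered up to 48 had a mean log2(CPM + 1) of 2.67 for *Stc1* and 7.10 for *Adm*, and the 37 cells above 48 had 6.58 and 5.38. Differences of either gene between d3, d4 and d5 therefore depend on which cells were taken.

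VEGF-A is the main growth factor of vessel growth (*Vegfa*, chr17:46153942-46169326, minus strand, NCBIM37). At d0 its median was 0, with a UMI in 28 of 72 cells (38.9%) and a highest cell of 84.8 CPM. Its median was 11.7 CPM at d1, 23.2 at d6, 7.43 at d8, 49.9 at d12 and 0 at d20. At d12, 66 of 67 cells had a UMI and the highest cell had 529 CPM, against 14 of 38 cells and 148 CPM at d20. After thinning, cells with a UMI made up 11.3% at d0, 37.3% at d8, 68.2% at d12 and 30.6% at d20, so that d12 stayed highest at equal depth.

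BNIP3 takes part in mitophagy and is a standard readout of hypoxia (*Bnip3*, chr7:146082519-146101202, minus strand, NCBIM37). In mean CPM it was at 24.4 at d0, 9.37 at d1, 61.9 at d3, 94.8 at d5, 154 at d6 and 290 at d8c, and then at 75.2 at d12. Its median was highest at d6, with 63.2 CPM, and was 31.0 CPM at d12. The d8c mean came with a median of 49.6 CPM and an upper quartile of 498 CPM, so that some colony cells were far above the others. At d20, 32 of 38 cells had a UMI and the highest had 2012 CPM.

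**Figure D2:**
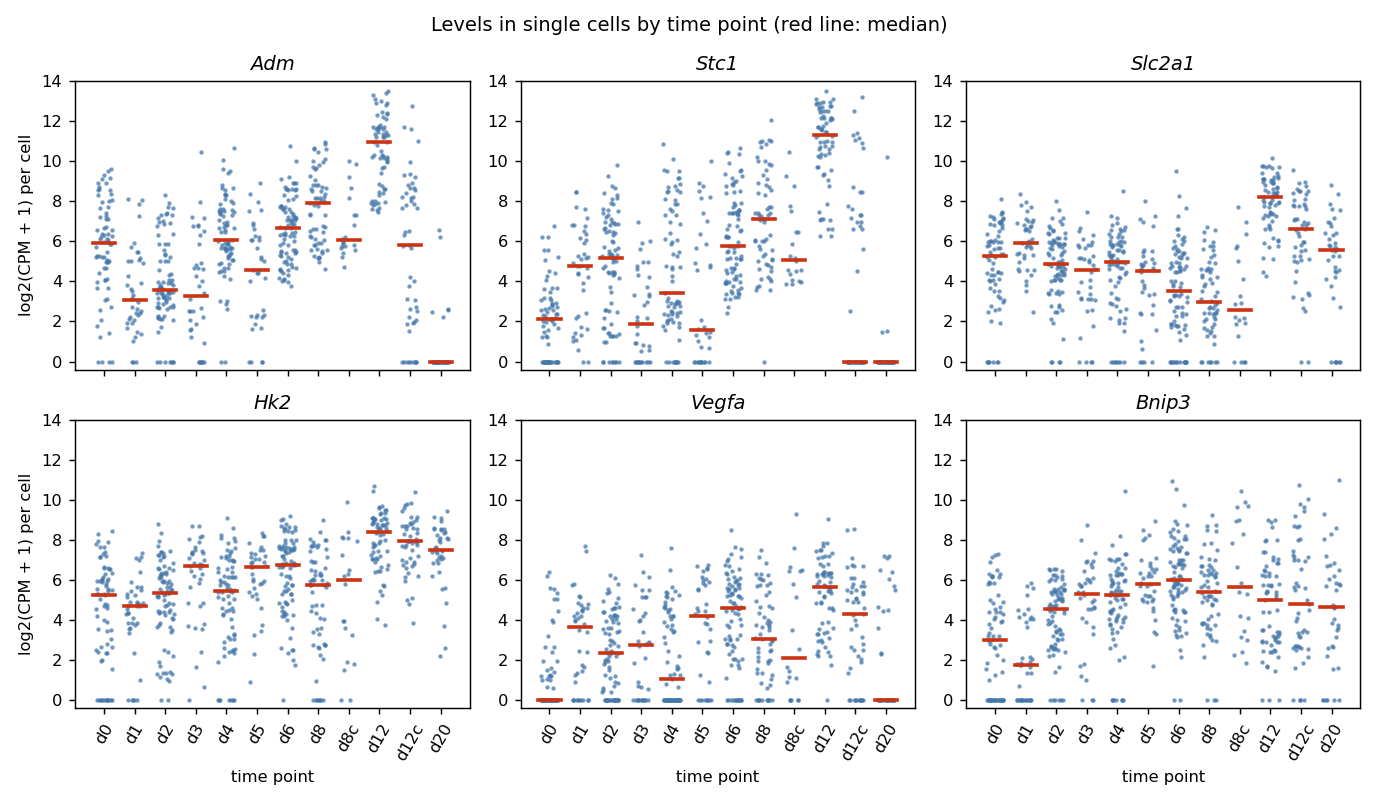
Log2(CPM + 1) of 6 of the genes in each of the 670 kept cells (points, spread sideways at random) by time point, with the median as a red line. All d12 cells lie above 0 for *Adm*, *Stc1*, *Slc2a1* and *Hk2*, and at d20 the medians of *Adm*, *Stc1* and *Vegfa* are 0.

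Time points were then compared by the difference of mean log2(CPM + 1), and a gene was counted where this passed 1 in size and its mean was at least 1 in either group. At d1 against d0, 3 of the 10 genes were higher and 1 was lower, against 23.9% of all 9441 genes tested (19.3% higher and 4.57% lower). *Stc1* (2.27), *Vegfa* (1.85) and *Slc2a1* (1.15) were higher and *Adm* was lower (−2.17). The median over all genes was 0.43 in this comparison, and the median number of detected genes per cell was 7763 at d1 and 6720 at d0, whose part in the differences was not tested. *Slc2a1* passed 1 in 9 of 15 settings, with 0.58 after thinning to equal depth, so that its rank is less firm than that of *Adm* and *Stc1*, which passed in all 15.

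At d8 against d0, 4 genes were higher and 1 lower, against 30.8% of all genes (17.1% higher and 13.7% lower). *Stc1* (4.97), *Bnip3* (2.40), *Vegfa* (2.06) and *Adm* (2.03) were higher, and *Slc2a1* was lower (−1.56). *Pfkp* (−0.97) and *Ldha* (−0.96) lay just inside the limit, and with TMM or DESeq2 scaling they passed it, giving 4 higher and 3 lower. Within numbers above 48, *Adm* differed by 0.89.

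Between neighbouring days the genes rarely moved as 1 group. At d2 against d1, *Bnip3* was higher (2.13) and *Slc2a1* lower (−1.19), against 8.23% of all genes past 1. At d3 against d2, *Hk2* was higher (1.04) and *Stc1* lower (−2.42), against 10.4%. At d4 against d3, *Adm* (2.70) and *Stc1* (2.29) were higher, against 12.7%, and the dependence on running numbers at d4 bears on both.

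At d5 against d4, *Vegfa* (1.66), *Hk2* (1.13) and *Bnip3* (1.04) were higher and *Adm* (−1.90) and *Stc1* (−1.29) lower, against 13.5% of all genes. At d6 against d5, *Stc1* (2.87) and *Adm* (2.22) were higher and *Ldha* (−1.47) and *Pfkp* (−1.44) lower, against 33.1%. At d8 against d6, *Adm* was higher (1.11) and *Hk2* lower (−1.34), against 9.78%. With all kept cells, *Adm* and *Stc1* thus turned direction between d3 and d5. All kept d3 and d5 cells were numbered up to 48. Within these numbers, the d4 mean log2(CPM + 1) of *Stc1* given above lay between those of d3 (2.26) and d5 (3.26), without a turn. That of *Adm* lay above both (3.58 and 4.38). Both genes were higher in the steps that led from d5 to d8, where *Stc1* (0.91) stayed under 1 in the last.

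The d12 cells were set against the d8 cells next. At d12 against d8, 7 of the 10 genes were higher and none was lower, against 28.8% of all genes past 1 in either direction (14.2% higher and 14.6% lower). *Slc2a1* differed by 4.76, *Stc1* by 3.79, *Hk2* by 3.04, *Adm* by 2.83, *Vegfa* by 2.04, *Pfkp* by 1.46 and *Ldha* by 1.32. *Pgk1* (0.72), *Aldoa* (0.45) and *Bnip3* (−0.59) did not pass 1. The median over the 10 genes was 1.75 and that over all 9708 genes tested was −0.13.

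*Slc2a1*, *Stc1*, *Hk2*, *Adm* and *Vegfa* passed 1 in all 16 settings of that comparison, *Ldha* in 15 and *Pfkp* in 13. With TMM scaling the median of all genes moved from −0.13 to 0.06, and that of the 10 genes to 1.97. Markers that moved between the same time points were the fibroblast sum, with medians of 11429 CPM at d8 and 6873 at d12, the epithelial sum, with 12.4 and 123 CPM, and the median spike-in share, 6.12% and 11.03%. The part of any of them in the differences was not tested.

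**Figure D3:**
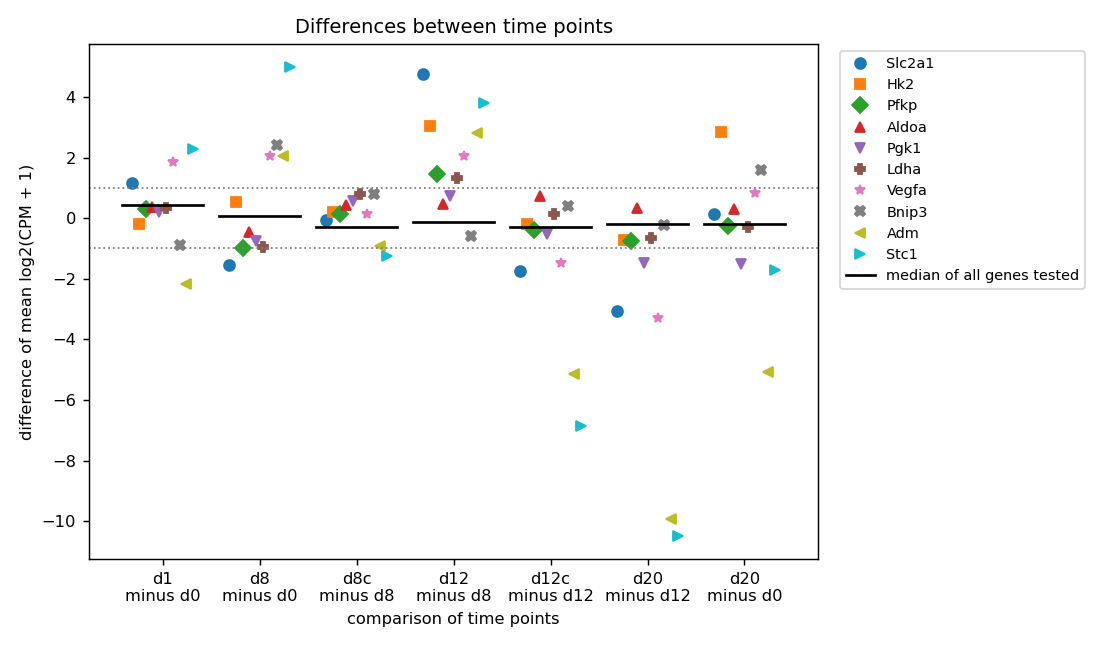
Difference of mean log2(CPM + 1) between time points for each of the 10 genes (symbols), with the limits of 1 and −1 (dotted) and the median of all genes tested (black bars). At d12 minus d8, 7 genes lie above 1, and at d20 minus d12 *Adm* (−9.93) and *Stc1* (−10.48) lie far below the rest.

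The d20 cells were then set against the d12 cells. At d20 against d12, 5 genes were lower and none was higher, against 51.4% of all genes past 1 in either direction (20.5% higher and 30.9% lower). The count of 5 in 10 is thus near the share of all genes. *Stc1* (−10.48), *Adm* (−9.93), *Vegfa* (−3.29), *Slc2a1* (−3.08) and *Pgk1* (−1.47) were lower. *Pgk1* passed 1 in 13 of 16 settings, with −0.63 from summed UMIs. The difference of *Hk2* was −0.72 and that of *Aldoa* 0.32. *Adm* and *Stc1* stood at the 0.04 and 0.01 percentile of all genes, the lowest ranks of the 10. TMM and DESeq2 scaling moved the median of all genes from −0.20 to −0.50 and −0.43, and the count of lower genes from 5 to 8 and 6.

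Start and end were compared last. At d20 against d0, 2 genes were higher and 3 lower, against 40.1% of all genes (15% higher and 25.1% lower). *Hk2* (2.85) and *Bnip3* (1.58) were higher, and *Adm* (−5.07), *Stc1* (−1.72) and *Pgk1* (−1.51) were lower. Here too *Pgk1* passed 1 in 13 of 16 settings. From the log2 of the mean CPM and from summed UMIs the split was 4 higher and 1 lower, with *Vegfa* at 1.68 and 1.48, and after thinning it was 3 higher and 2 lower, with *Vegfa* at 1.19. *Slc2a1* was back near its d0 level, with a difference of 0.12 that ranged from −0.51 to 0.41 over 16 settings. These comparisons share groups, and their values are therefore not independent of each other.

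Colony cells were set beside the other cells of their day. At d8c against d8, none of the 10 genes was higher and *Stc1* was lower (−1.26), against 20.6% of all genes (4.59% higher and 16% lower). From the log2 of the mean CPM, *Ldha* (1.00), *Vegfa* (1.41) and *Bnip3* (1.76) were higher, and from summed UMIs *Bnip3* was higher (1.47) and *Adm* lower (−1.07). At d12c against d12, 4 genes were lower and none was higher, against 32.9% of all genes (9.45% higher and 23.5% lower). These were *Stc1* (−6.87), *Adm* (−5.14), *Slc2a1* (−1.74) and *Vegfa* (−1.47). *Vegfa* passed 1 in 10 of 16 settings, with −0.72 after thinning, and *Slc2a1* in 13. Without the filter on cells, 9 of the 10 genes were lower at d12c, against 63.5% of all genes past 1. In the kept colony cells of day 12 the fibroblast sum had a median of 99.6 CPM, against 6873 CPM in the other cells of that day.

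The 2 sets of d12c cells differed in this. Against d12, the 21 cells numbered 1 to 24 had 2 lower genes, *Stc1* (−1.82) and *Adm* (−1.36), with 11.3% of all genes past 1 (2.42% higher and 8.92% lower). The 30 cells numbered 49 to 96 had 4 lower genes, *Stc1* (−10.40), *Adm* (−7.79), *Slc2a1* (−2.54) and *Vegfa* (−2.09), with 49.6% of all genes past 1 (17.3% higher and 32.2% lower). *Adm* ran from 198 to 6964 CPM in the first set and from 0 to 226 CPM in the second, and *Stc1* from 95.9 to 9436 and from 0 to 48.1 CPM. The ranges of *Stc1* thus did not overlap between the sets, and those of *Adm* overlapped from 198 to 226 CPM. The share of all genes without overlap was not computed, so that this is not read as particular to these 2 genes.

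*Hk2* had means of 439 and 234 CPM in the first and the second set of d12c cells, *Slc2a1* of 242 and 96.7 CPM, *Bnip3* of 88.0 and 241 CPM, and *Aldoa* of 1368 and 1582 CPM. Each of these genes overlapped between the sets. The d20 cells, set against the second set, had 3 lower genes of 9 tested (*Adm* −2.14, *Vegfa* −1.20, *Bnip3* −1.07), against 25.3% of all genes (14.9% higher and 10.3% lower), and *Stc1* was too low in both for the comparison. The fibroblast and XEN sums differed between the sets as given above, and their part in these values was not tested.

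**Figure D4:**
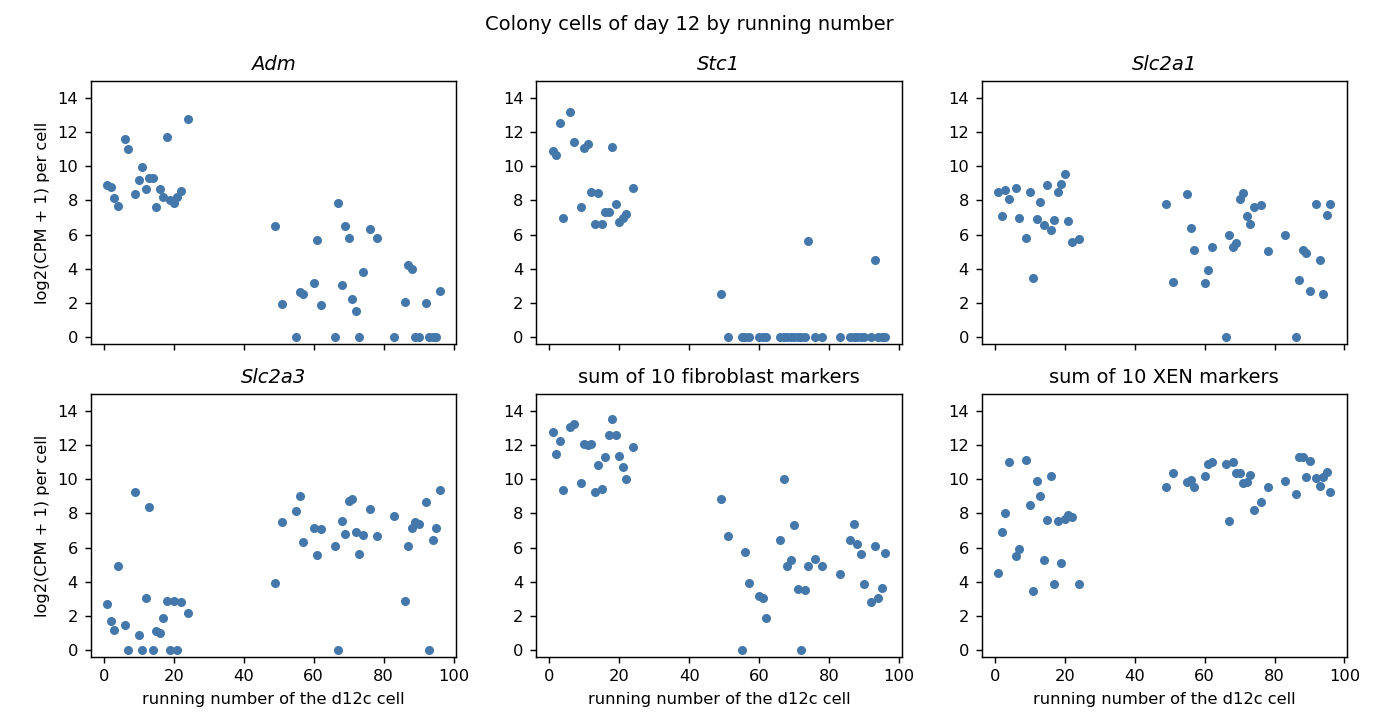
Log2(CPM + 1) in the 51 kept d12c colony cells against the running number in the cell's name, for *Adm*, *Stc1*, *Slc2a1*, *Slc2a3* and the sums of 10 fibroblast and 10 XEN markers. *Stc1* is above 6 on this scale in every cell numbered up to 24 and 0 in 27 of the 30 cells numbered 49 and up.

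Single cells were also asked for both hormones at once. At d12, 42 of 67 cells had at least 1000 CPM of *Adm* and of *Stc1*, against 2 of 62 cells at d8 and none at d20. At d20, 29 of 38 cells had a UMI of neither. Over the cells of 1 time point, Spearman's rho between the 2 genes was 0.605 at d12 (67 cells) and 0.842 at d12c (51 cells), 0.601 and 0.871 after thinning, and between −0.395 (d4) and 0.257 (d5) at the other time points. At d4 the value falls together with the disagreement between running numbers given above, and at d12c with the 2 sets.

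The same description was made against the marker sums, a comparison added after the data had been seen. At d12, rho with the XEN sum was −0.50 for *Adm*, −0.44 for *Stc1* and −0.38 for *Vegfa*, and −0.01 for *Slc2a1* and 0.13 for *Hk2*. It was 0.32 for *Pfkp* and 0.27 for *Bnip3*. With the fibroblast sum it was 0.36 for *Adm*, 0.51 for *Stc1*, 0.18 for *Pgk1*, 0.15 for *Slc2a1*, 0.04 for *Vegfa* and 0.03 for *Hk2*. It was negative for the others, −0.35 for *Aldoa*, −0.33 for *Pfkp*, −0.31 for *Bnip3* and −0.14 for *Ldha*. Among the d12 cells, those with more XEN transcripts thus tended to have less *Adm* and *Stc1*. At d12c, rho of *Slc2a1* with the XEN sum was −0.45. The points are cells of 1 table that share depth and composition, and no p is given.

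Over the cells of each time point, *Aldoa* and *Ldha* were the pair most often high together, with a median rho of 0.393 over the 12 groups (0.162 to 0.713). *Pgk1* with *Ldha* had 0.300 and *Slc2a1* with *Ldha* 0.280, each above 0 in all 12 groups. Over all 45 pairs of the 10 genes, the median rho of a time point was between 0.015 (d0) and 0.166 (d5). Most pairs thus varied from cell to cell with little relation to each other.

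Over the 12 group means, Pearson's r was 0.895 for *Adm* with *Stc1*, 0.821 for *Pfkp* with *Ldha*, 0.766 for *Vegfa* with *Stc1* and 0.751 for *Aldoa* with *Ldha*, and it was −0.477 for *Aldoa* with *Adm*. Of 7182 genes whose mean log2(CPM + 1) reached 3 in some group, those most like *Stc1* were *Gabarapl1* (0.957), *Cndp2* (0.948) and *Pla1a* (0.931), and those most like *Adm* were *Lbh* (0.935), *Ifi27* (0.931) and *Cxcl12* (0.924). For *Slc2a1* they were *Uck2* (0.954), *Mafk* (0.946) and *Klf5* (0.939). For *Hk2*, *Mxi1* (0.867) and *Uaca* (0.849) were among them. *Mxi1* is itself a known hypoxia response gene.

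For the remaining genes the nearest were *Pgam5*, *Tfb2m* and *Rbm14* (0.932 to 0.943) for *Pfkp*, *Plekhf2*, *Ung* and *Nhp2* (0.872 to 0.919) for *Aldoa*, *Pafah1b1*, *Ube2j1* and *Gspt1* (0.940 to 0.953) for *Pgk1*, and *Nfkbib*, *Wdr5* and *Twistnb* (0.908 to 0.936) for *Ldha*. *Vegfa* was nearest to *Zfp36l1*, *Dbt* and *Xdh* (0.853 to 0.868), and *Bnip3* to *Eif4a2*, *Scd1* and *Ndufa7* (0.861 to 0.927). None of the 10 genes was among the 3 nearest of another. With 12 points and 7182 genes, values of this size are a description of likeness alone.

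Other genes of the pathway were then read from 5 lists, whose counts are to be read against the shares of all genes given above for each comparison. Among glycolytic enzymes and transporters beside the 10, 25 were in the table. *Slc2a3*, which encodes the high-affinity glucose transporter GLUT3, had a mean of 4.69 CPM at d0, then 6.80 (d8), 41.4 (d12), 126 (d12c) and 497 (d20). Its order was thus the reverse of that of *Slc2a1* between d12 and d20, where *Slc2a3* differed by 5.51 and *Slc2a1* by −3.08. The d12c cells numbered 1 to 24 had a median of 2.20 CPM of *Slc2a3* and those numbered 49 to 96 a median of 138 CPM.

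At d12 against d8, 5 of the 17 genes tested in that list were higher, led by *Pfkfb3* (2.88), which makes the activator of phosphofructokinase, and the lactate carrier *Slc16a1* (2.73), and *Ldhb* was lower (−1.13), against 14.2% higher and 14.6% lower among all genes. The list's median difference was 0.62, that of all genes −0.13. At d20 against d12, 2 of 17 were higher (*Slc2a3* and *Ldhb*, 1.48) and 8 were lower, led by *Pfkfb3* (−4.38) and *Pfkm* (−2.63), against 20.5% and 30.9%, and the medians were −0.65 and −0.20. At d20 against d0, 5 of 15 were higher, led by *Slc2a3* (7.66) and *Ldhb* (2.89), and 2 were lower, *Eno3* (−3.33) and *Pfkm* (−1.03). Earlier, *Slc16a1* was higher at d1 than at d0 (2.22) and *Eno3* lower (−1.57), and at d8 against d0 *Ldhb* (2.53) and *Pfkm* (1.95) led 5 of 14 higher genes, with *Eno3* lower (−2.28).

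In the colony cells, 2 of 15 of these genes were higher at d8c than at d8 (*Slc2a3* 1.18, *Slc16a3* 1.15). At d12c against d12, 3 of 18 were higher, led by *Slc2a3* (1.98) and *Aldoc* (1.20), and 5 were lower, led by *Pfkfb3* (−2.28) and *Pfkm* (−1.70). In the d12c cells numbered 1 to 24, none of 18 was higher than at d12 and 1 was lower, *Pfkm*. In those numbered 49 to 96, 4 of 18 were higher and 5 lower. Over the 12 groups, mean log2(CPM + 1) was between 9.47 and 10.79 for *Gapdh* and between 9.31 and 10.73 for *Pkm*, and between 7.46 and 9.35 for *Tpi1* and 5.93 and 8.85 for *Ldhb*. *Eno1* was at or near 0 in all groups, and since the counting of reads shared with its near-identical copies is not given, it is not read further.

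Of the 10 genes of hypoxia sensing and signalling, *Hif1a*, the oxygen-regulated HIF subunit found in most cells, had a mean of 66.0 CPM at d0, 100.3 at d8, 231 at d12 and 75.3 at d20. HIF1A is controlled mainly through protein stability, which these data do not measure. *Epas1*, which encodes HIF2A, had means of 0.80 CPM at d0, then 0.42 (d8), 31.8 (d12), 49.7 (d12c) and 135 (d20). At d12 against d8, 3 of 8 genes tested were higher and none lower, *Egln3* (2.86), *Epas1* (2.42) and *Hif1a* (1.70), against 14.2% and 14.6% of all genes. The list's median of −0.08 lay close to that of all genes, −0.13.

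At d20 against d12, *Epas1* (3.44) and *Egln1* (1.51) were higher, and *Hif1a* (−2.54) and *Egln3* (−1.46) lower, of 8 tested, which as 4 of 8 is near the 51.4% of all genes past 1. At d20 against d0, *Epas1* (5.84), *Egln3* (1.60) and *Egln1* (1.51) were higher and none was lower. At d12c against d12, *Epas1* (1.34) and *Egln1* (1.06) were higher and *Hif1a* lower (−2.05). In the d12c cells numbered 1 to 24, none of 8 passed 1 against d12, with 11.3% of all genes past 1. In those numbered 49 to 96, 2 of 8 were higher and 4 lower, with 49.6% of all genes past 1. *Vhl* was higher at d8 than at d0 (1.37) and *Arnt* lower at d8c than at d8 (−1.27), each as 1 of 6 genes tested. None of 6 passed 1 at d1 against d0.

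**Figure D5:**
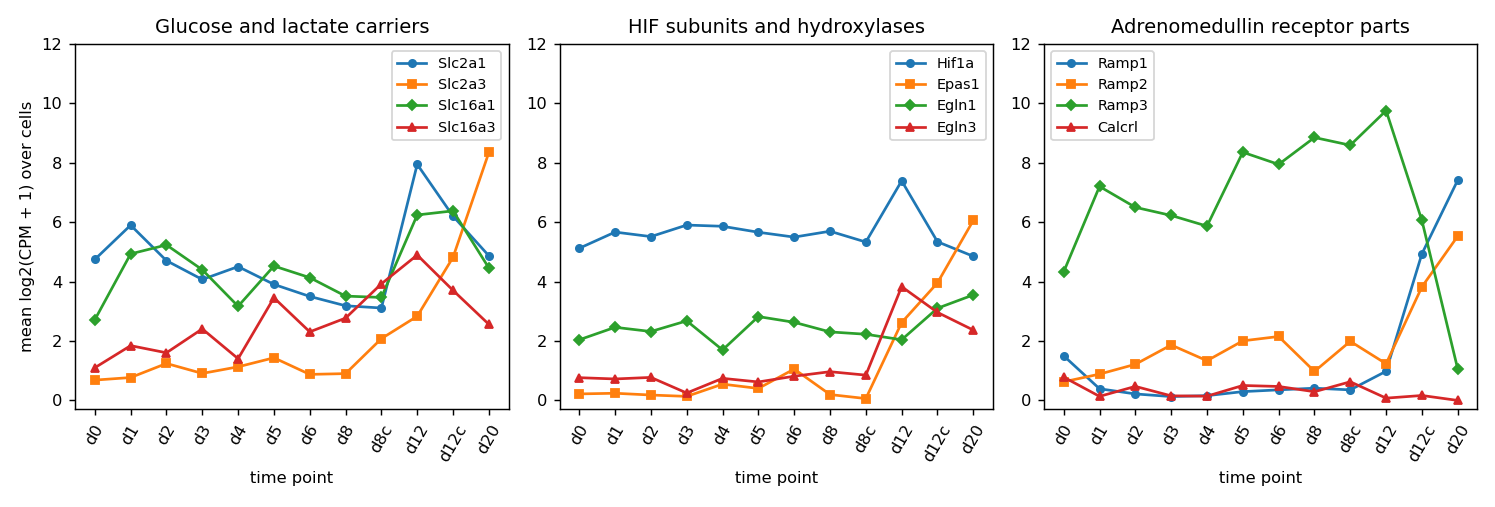
Mean log2(CPM + 1) over the kept cells by time point for carriers of glucose and lactate (left), HIF subunits and hydroxylases (middle) and the parts of the adrenomedullin receptor (right). *Slc2a1*, *Hif1a* and *Ramp3* are highest at d12, and *Slc2a3*, *Epas1*, *Ramp1* and *Ramp2* are highest at d20.

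Among 26 other hypoxia response genes, 9 of 23 tested were higher and 3 lower at d12 against d8, with 14.2% and 14.6% of all genes, and their median was 0.43 against −0.13. *Hmox1*, which encodes heme oxygenase, differed by 5.13 and *Bhlhe40*, a transcriptional repressor, by 3.53, and the endothelin gene *Edn1* (−2.88) and the carbonic anhydrase gene *Car12* (−2.17) were lower. At d20 against d12, 2 of 22 were higher, *P4ha2* (2.67) and *Plod2* (1.20), both enzymes of collagen modification, and 6 were lower, led by *Lox* (−6.44) and *Hmox1* (−5.52). These 8 of 22 are a smaller share than the 51.4% of all genes, and the medians of the list and of all genes were −0.21 and −0.20. *Lox*, which cross-links collagen, had a mean of 457 CPM at d0 and a UMI in 0 of 38 cells at d20, which, with 3 cells of the 38 taken as the limit, allows up to 7.89% of cells with a UMI.

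At d20 against d0, 6 of 23 of these genes were higher, led by *P4ha2* (2.78) and *Ndrg1* (2.52), and 5 lower, among them *Lox* (−8.08). At d8 against d0, 6 of 21 were higher (*Car12* 2.93 and *Ndrg1* 2.66 foremost) and 6 lower (*Tfrc* among them, −2.88), and at d1 against d0, 1 of 19 was higher (*Ndrg1*, 1.58) and 4 lower, led by *Lox* (−4.49) and *P4ha2* (−2.06). In colony cells, 3 of 21 were higher at d8c than at d8, led by *Tfrc* (2.17) and *Bhlhe40* (1.46), and 5 lower, led by *Hmox1* (−1.44) and *P4ha2* (−1.37). At d12c against d12, none of 22 was higher and 5 were lower, led by *Lox* (−3.92) and *Hmox1* (−2.67). The d12c cells numbered 1 to 24 had none of 22 higher and 5 lower, led by *Hmox1* and *P4ha2*. Those numbered 49 to 96 had 2 higher, *P4ha2* and *Pdk1*, and 5 lower, led by *Lox* and *Hmox1*. Genes of this list thus moved in both directions in most comparisons.

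Genes that lead pyruvate into mitochondria or back to glucose were read next. At d12 against d8, 1 of 13 tested was higher, the phosphatase *Pdp1* (2.88), which switches pyruvate dehydrogenase on, against 14.2% of all genes, and the median was −0.14 against −0.13. At d20 against d12, 3 of 14 were higher, led by *Pdk2* (1.62) and *Pdhb* (1.42), and 4 lower, led by *Pcx* (−4.26), which encodes pyruvate carboxylase, and *Pdp1* (−2.79). As 7 of 14 this is near the 51.4% of all genes, with medians of −0.06 and −0.20. *Pcx* had been higher at d8 than at d0 (3.08), with *G6pc3* (1.12) as the other of 2 in 11, and at d1 against d0 *Pdp1* (1.39) and *G6pc3* (1.28) were higher, also of 11.

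At d20 against d0, *G6pc3* (2.04) and *Pdk2* (1.57) were higher and *Mpc1*, part of the mitochondrial pyruvate carrier, lower (−2.15), of 11 tested. At d8c against d8, *Mpc2* was lower (−1.08). At d12c against d12, *Pdk2* was higher (1.23) and 3 of 14 were lower, led by *Pcx* (−2.40) and *Pdp1* (−2.12). In the d12c cells numbered 1 to 24, none of 13 was higher and 1 was lower, *Mpc2*. In those numbered 49 to 96, 2 of 14 were higher and 5 lower.

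Receptors and relatives of the secreted proteins differed among themselves. *Ramp3*, one of the RAMP proteins that turn CALCRL into an adrenomedullin receptor, had means of 32.6 CPM at d0, 271 at d1, 958 at d8, 1391 at d12 and 12.5 at d20. *Ramp1*, which with CALCRL forms the CGRP receptor, had 19.7 CPM at d0, 24.2 at d12 and 535 at d20, and *Ramp2* had 3.96, 14.1 and 107 CPM. *Calcrl* itself was low in all groups, at most 10.2 CPM in the mean (d8c), with 0.14 CPM at d12 and 0 of 38 cells with a UMI at d20. The d12c cells numbered 1 to 24 had a median of 762 CPM of *Ramp3* and 0 of *Ramp1*, and those numbered 49 to 96 had 9.67 and 386 CPM.

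Of the 10 receptor genes tested at d20 against d12, 3 were higher, led by *Ramp1* (6.43) and *Ramp2* (4.30), and 7 lower, led by *Ramp3* (−8.70) and *Nrp1* (−5.05), a co-receptor of VEGF, against 20.5% and 30.9% of all genes, with medians of −1.27 and −0.20. *Flt1*, which encodes the VEGF receptor VEGFR1, had means of 26.6 CPM at d0, 0.67 at d8, 14.7 at d12 and 177 at d20, while *Vegfa* itself was lower at d20 than at d12. At d12 against d8, *Nrp1* (2.09) and *Kdr* (1.99) led 3 of 10 higher genes and *Pgf* was lower (−1.74), against 14.2% and 14.6%, with medians of 0.81 and −0.13. At d20 against d0, *Ramp1* (5.91) and *Ramp2* (4.91) led 3 of 7 higher genes, and *Nrp1* (−4.47) and *Ramp3* (−3.28) led 3 lower.

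In the earlier comparisons of this list, *Ramp3* (2.87) and *Nrp2* (1.40) were higher and *Flt1* (−1.31) and *Ramp1* (−1.11) lower at d1 against d0, of 7. At d8 against d0, *Ramp3* (4.52) and *Pgf* (2.06) led 3 higher genes of 7, and *Flt1* (−2.30) and *Nrp1* (−1.51) led 3 lower. At d8c against d8, *Ramp2* was higher (1.01) of 6 tested. At d12c against d12, *Ramp1* (3.95) and *Flt1* (2.66) led 3 higher genes of 10, and *Nrp1* (−3.76) and *Ramp3* (−3.70) led 5 lower. In the d12c cells numbered 1 to 24, none of 11 was higher and 2 were lower, *Nrp1* and *Vegfc*. In those numbered 49 to 96, 3 of 10 were higher and 5 lower.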

How the data were processed

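The deposited values are UMI counts of single cells, which the authors made by splitting reads by barcode, aligning them to the mm9 transcriptome and removing duplicate UMIs. The aligner and strand setting are not given in the sources used here. Of the rows, 92 spike-in RNAs and 4 entries with duplicated names stayed out of library sizes. The filter of 4000 detected genes per cell came first, CPM were computed, and log2 taken with a pseudocount of 1. Shares were also computed after thinning each cell to 50000 UMIs, for which 647 cells were deep enough. The largest count of any of the 10 genes was 12650. All 5 counts of at least 100000 in the table were multiples of 1000, and none of these belonged to the 10 genes.

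The 10 genes and the gene lists were chosen with earlier results of these data known. The rule for named genes takes the 10 genes, the 2 largest differences past 1 in each direction of each list and comparison, the 3 genes most like each of the 10 by Pearson's r over groups, and markers. Results for a few genes that this rule names are not reported here. Genes were tested where the mean log2(CPM + 1) was at least 1 in either group. No test between groups was made, since cells are not replicates. Alternatives covered the filter on cells and genes, scaling, pseudocount, thinning, averaging, running numbers and the highest cell. The d12c sets and the marker correlations were added after seeing the data.

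Positions are from GENCODE M1 on NCBIM37, and promoters from RefSeq. The calculation was tested on simulated data. Values were computed with scipy 1.17.1, pandas 2.3.3 and numpy 2.4.6 in Python 3.11.15, and scaling factors came from edgeR 4.0.16 and DESeq2 1.42.0 on summed counts under R 4.3.3.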

Additional observations from a re-analysis of the deposited data

How the results depend on the processing

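Counts of the 10 genes past 1 were within 1.5 times the reported count for 89 of 105 values. With a pseudocount of 10, the count was 2 at d1 against d0 and 3 at d20 against d0. With at least 6000 detected genes it was 3 at d8c against d8, 2 at d12c against d12 and 3 at d20 against d0. With running numbers up to 48 it was 8 at d8 against d0, 2 at d8c against d8 and 2 at d12c against d12, and with numbers above 48 it was 8 at d20 against d12. From summed UMIs it was 3 at d8c against d8 and 2 at d12c against d12, and from the log2 of the mean CPM 4 at d8c against d8. Without the highest cell it was 2 at d8c against d8. With no filter on cells it was 9 at d12c against d12, and with d12c cells numbered 1 to 24 it was 2. With TMM scaling it was 8 at d20 against d12. The d12c set has fewer cells by construction, and its marker sums differ as given above. For none of these values was the cause tested.

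Of 1050 differences of single genes under an alternative, 961 did not change their call, 34 no longer passed it, 53 newly passed it and 2 reversed, both for *Stc1* at d20 against d0 (1.61 from the log2 of the mean CPM and 3.43 from summed UMIs, against −1.72). A change of sign within the limit of 1 was not counted as a reversal. Numbers above 48 could not be compared for d1 and d8c, which have none. No paired analysis was possible because the batch of each cell is not known. Depth limits the shares of cells, which thinning lowered at every time point for *Pfkp* and *Vegfa*.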
